A study of Homo sapiens with 6 samples.

Results

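The genes of the hemidesmosome and of its ligand laminin-332, here the 8 genes LAMA3, LAMB3, ITGA6, ITGB4, COL17A1, DST, PLEC and CD151, were followed in SUM159, an established cell line of human breast cancer with basal-like and mesenchymal traits. Members were all probe sets annotated to exactly 1 of these symbols, which gave 21 of the 54613 probe sets tested and covered 6 of the 8 genes. DST had 10 probe sets, ITGB4 had 5, ITGA6 and PLEC had 2 each, and LAMB3 and CD151 had 1 each. No probe set of the annotation used here carried the symbol LAMA3 or COL17A1, and these 2 genes were not analysed here. Probe sets of 1 gene read the same RNA sample and are not replicates of one another.

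Hemidesmosomes are the anchoring junctions by which basal epithelial cells hold on to the basement membrane. On the outside they bind laminin-332, a secreted trimer that includes the chains encoded by LAMA3 and LAMB3. The ligand is held by the integrin made of the ITGA6 and ITGB4 subunits. The transmembrane collagen COL17A1 and the tetraspanin CD151 sit beside this integrin in the same membrane complex. Inside the cell the plakins plectin (PLEC) and dystonin (DST) link this complex to keratin filaments. Myoepithelial cells of the breast rest on such junctions, and basal-like breast cancer cells often keep parts of them.

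The control cells had been transduced with the empty lentiviral vector pLVX-puro, and the other group with pLVX-puro carrying a synthesized human SCGB3A1 cDNA, which encodes a small secreted protein of the secretoglobin family. Both groups had gone through 7 days of puromycin at 2 µg/ml and were then seeded at 12500 cells/ml in HuMEC medium with BSA and B27 and grown for 5 days without attachment, so that they formed floating oncospheres with no culture surface to adhere to. RNA of each of the 3 cultures per group, called biological replicates in the labels, was hybridized to 1 Affymetrix 3′ expression array. Whether the replicates of a group came from separate transductions is not stated, and p-values therefore measure only how these cultures scatter, which may be technical. The comparison asks which genes differ between oncospheres with and without the SCGB3A1 vector.

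Values are log2 expression after robust multiarray averaging (RMA), so a difference of 1 is a doubling, and every difference is SCGB3A1 minus control. The table's median probe set sat at 6.913. The probe set annotated to SCGB3A1 read 6.80, 6.89 and 7.05 in the control arrays and 6.60, 6.92 and 6.71 in the arrays labelled SCGB3A1, a difference of −0.17 ± 0.10 (SE, n = 3 arrays per group; limma adjusted p = 0.835). It did not separate the groups, and whether its probes lie within the cDNA carried by the vector was not tested. The study's methods state that expression of the transduced genes was checked by qPCR after selection. Those qPCR values were not analysed here, and the SCGB3A1 group is therefore the group so labelled. Array control 2 stood apart on the first principal component (38% of the variance), at 30.7 against −16.1 to 6.13 for the other 5. Its correlation with the other arrays was 0.989 to 0.993, against 0.993 to 0.996 among the others. The 4 epithelial markers (KRT5, KRT8, KRT14 and KRT18) and the 3 markers of mesenchymal or basal-like breast cancer cells (VIM, CD44 and EGFR) each lay above 90.0% or more of the tested probe sets, and KRT5 and KRT14 are described with the pathway genes. The 4 luminal markers (ESR1, PGR, FOXA1 and GATA3) lay above 20.2% to 74.3% of them, 3 haematopoietic markers above 20.9% to 69.2%, and 3 endothelial markers above 6.49% to 76.5%.

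LAMB3 had the largest difference among the members, and LAMA3, which was not analysed here, encodes a chain of the same trimer. Their promoters are given because both hold the AP-1 motif, a choice made after the motif search. Each is the 250 bases before a RefSeq transcript start (GRCh38.p14), written 5′ to 3′ on the gene's strand. Capitals mark matches to TGANTCA, the AP-1 motif, which reads the same on both strands apart from its middle base and is bound by JUN and FOS proteins. The LAMB3 stretch lies at chr1:209651375-209651624 on the minus strand and the LAMA3 stretch at chr18:23872770-23873019 on the plus strand.
LAMB3: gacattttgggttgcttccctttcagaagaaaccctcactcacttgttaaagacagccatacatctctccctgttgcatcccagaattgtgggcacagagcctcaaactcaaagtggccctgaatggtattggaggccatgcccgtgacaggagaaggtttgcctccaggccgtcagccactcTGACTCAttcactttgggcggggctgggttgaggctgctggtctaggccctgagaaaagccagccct
LAMA3: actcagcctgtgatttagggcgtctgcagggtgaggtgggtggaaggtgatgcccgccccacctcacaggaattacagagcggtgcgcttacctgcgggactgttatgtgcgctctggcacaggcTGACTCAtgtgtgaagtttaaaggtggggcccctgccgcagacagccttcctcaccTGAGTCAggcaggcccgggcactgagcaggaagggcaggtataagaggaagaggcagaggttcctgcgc
The LAMB3 match began 67 bases before the start, and the LAMA3 matches began 125 and 69 bases before it. Promoter stretches were on hand for 5 of the 8 genes, 10 in all because LAMB3 and DST had 3 starts each and ITGA6 had 2. Of the 3 LAMB3 stretches 2 overlap, so the 10 are not all separate sequence. The AP-1 letters were found in 2 of these 10, 1 of the 3 of LAMB3 and the only 1 of LAMA3. They occurred in 6.57% of the 35116 human promoter stretches of the same length. A match describes the letters and not a bound site, and the arrays do not measure binding.

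None of the 21 member probe sets passed limma's adjusted p of 0.05, a threshold that 0.0183% of all tested probe sets passed (10 of 54613). None met the study's signature thresholds (adjusted p under 0.25, unadjusted p under 0.05 and a log2 difference larger than 0.5), which 0.0311% of all probe sets met in either direction. At an unadjusted p under 0.05, 2 member probe sets read higher (9.52%) and 1 read lower (4.76%), against 3.09% and 3.1% of all probe sets. The 3 were LAMB3, the DST probe set 216918_s_at and the DST probe set 1553191_at. The 2 groups of arrays did not overlap for 2 member probe sets that read higher (9.52%) and 1 that read lower (4.76%), against backgrounds of 5.95% and 5.25%. Those were LAMB3 and DST 216918_s_at on the higher side and DST 212254_s_at on the lower side. The members were chosen with earlier results of these data known, so the shares describe them and do not test them. Without array control 3 or array SCGB3A1 1, LAMB3 was the only member with an unadjusted p under 0.05. Without control 2, control 3, SCGB3A1 1 or SCGB3A1 3 the groups failed to overlap for 5 or 6 member probe sets, since fewer arrays overlap less by construction.

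**Figure D1:**
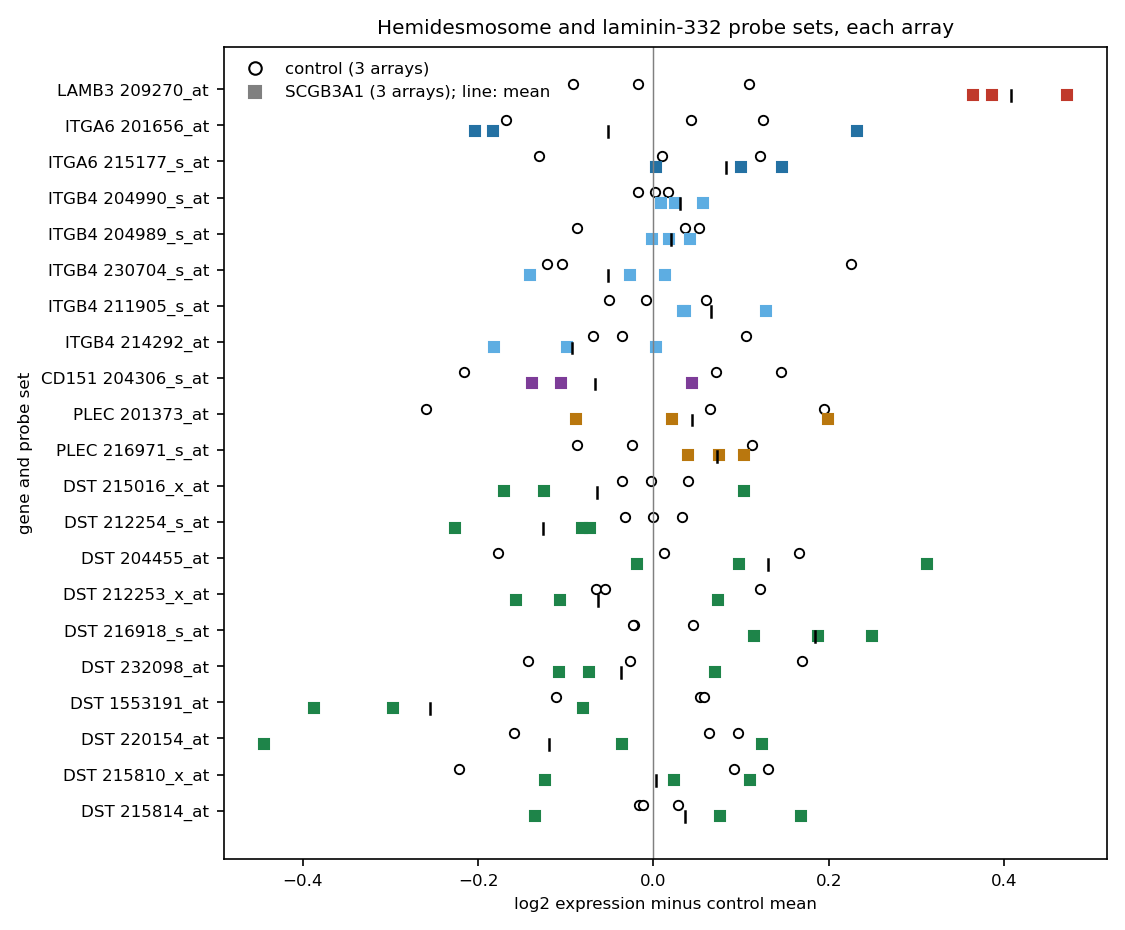
Each row is 1 of the 21 member probe sets and the x axis is log2 expression minus the mean of that probe set's 3 control arrays; open circles are control arrays, squares are SCGB3A1 arrays (coloured by gene) and the short line is their mean. The 3 SCGB3A1 arrays of LAMB3 sit to the right of all its control arrays with a gap of 0.26, whereas the squares and circles of most other rows are mixed.

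LAMB3, the laminin β chain found in the laminin-332 trimer, differed most among the members. Its probe set (209270_at) read 8.64, 8.44 and 8.51 in the control arrays and 9.00, 8.92 and 8.90 in the SCGB3A1 arrays. All 3 SCGB3A1 arrays were above all 3 controls, and the gap between the groups (0.26) exceeded the whole range of either. Group means were 8.53 ± 0.10 and 8.94 ± 0.06 (SD, n = 3 each), a difference of 0.41 ± 0.08 (SE; 95% interval 0.24 to 0.58), or 1.33-fold. The unadjusted p was 0.000195 and limma's adjusted p was 0.288, so the difference did not pass the test over all probe sets. Among the 54613 probe sets it ranked 34 by p and 45 by the size of a difference upwards. An exact permutation test of the 6 arrays gave p = 0.1 (two-sided), the smallest value that 3 arrays against 3 allow. Leaving out 1 array at a time moved the difference between 0.36 (without control 2) and 0.46 (without control 1). With 1 probe set, no second measurement of LAMB3 was at hand, and its partner LAMA3 was not analysed here.

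The receptor subunits gave no difference that passed the test, and the groups overlapped at each of their probe sets. ITGA6, the α subunit of the laminin-binding integrin, was read by 2 probe sets of opposite sign. Probe set 201656_at read 10.67, 10.96 and 10.88 in control and 10.63, 10.66 and 11.07 in SCGB3A1 arrays. Here 2 SCGB3A1 arrays were the lowest of the 6 and the third was the highest, with a difference of −0.05 ± 0.12 (95% interval −0.31 to 0.20; limma adjusted p = 0.964). Probe set 215177_s_at read 9.83, 9.94 and 9.69 against 9.96, 9.92 and 9.82, a difference of 0.08 ± 0.08 (adjusted p = 0.905), and its groups overlapped.

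ITGB4, the β subunit whose long cytoplasmic tail recruits plectin, held the member probe set with the smallest spread. This probe set (204990_s_at), its highest-reading, read 7.90, 7.92 and 7.94 in control and 7.95, 7.93 and 7.98 in SCGB3A1 arrays. All 6 values lay within 0.074, and the pooled SD within groups (0.0209) was below that of all but 0.436% of the tested probe sets. The difference was 0.03 ± 0.07, with a 95% interval of −0.12 to 0.18 (limma adjusted p = 0.963). Because limma draws each variance towards that of all probe sets, this SE is wider than the spread of these 6 values alone would give. The interval does not reach the LAMB3 difference of 0.41. The other 4 ITGB4 probe sets had pooled SDs of 0.0549 to 0.149 and differed by −0.09 to 0.07, and adjusted p was 0.890 to 0.977 over all 5. Only 2 of the 5 read above the table's median probe set, and RMA draws differences of dim probe sets towards 0.

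CD151, the tetraspanin that joins laminin-binding integrins in the membrane, read 11.22, 10.93 and 11.30 in control and 11.05, 11.01 and 11.19 in SCGB3A1 arrays (204306_s_at). The SCGB3A1 arrays all fell inside the range of the controls. The difference was −0.07 ± 0.10 (95% interval −0.28 to 0.15; limma adjusted p = 0.941).

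The plakin PLEC, which bridges the ITGB4 tail and keratin filaments, was read by 2 probe sets with overlapping groups. Probe set 201373_at read 8.69, 9.14 and 9.01 against 8.97, 8.86 and 9.15, a difference of 0.04 ± 0.11 (limma adjusted p = 0.967). Probe set 216971_s_at read 8.14, 8.27 and 8.07 against 8.20, 8.26 and 8.23, a difference of 0.07 ± 0.08 (adjusted p = 0.912). The SCGB3A1 arrays lay within the range of the controls, apart from 1 array just above it at 201373_at.

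DST encodes several large plakins from 1 locus, of which only the epithelial form, BP230, is a part of the hemidesmosome, while longer forms act at actin and microtubules in other cells. Its 10 probe sets did not move as 1 group: 4 read higher and 6 lower in the SCGB3A1 arrays, from −0.25 to 0.18 with a median of −0.05. The probe set annotated to the transcript record NM_001723, that of the epithelial form (204455_at), read 9.28, 9.09 and 9.43 in control and 9.25, 9.37 and 9.58 in SCGB3A1 arrays. Those groups overlapped, with a difference of 0.13 ± 0.10 (95% interval −0.10 to 0.36; limma adjusted p = 0.881).

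The other DST probe sets that stood out ran in opposite directions. Probe set 216918_s_at read 8.27, 8.20 and 8.20 in control and 8.48, 8.34 and 8.41 in SCGB3A1 arrays, with no overlap and a difference of 0.18 ± 0.07 (limma adjusted p = 0.782). Probe set 1553191_at read 7.31, 7.15 and 7.32 against 6.97, 6.87 and 7.18, a difference of −0.25 ± 0.09 (limma adjusted p = 0.759). In the latter the highest SCGB3A1 array was just above the lowest control array. Probe set 212254_s_at read 10.90, 10.83 and 10.86 against 10.79, 10.78 and 10.64, lower in all 3 SCGB3A1 arrays, with a difference of −0.13 ± 0.07 (limma adjusted p = 0.838). Of the 10, 8 read above the table's median probe set. Which DST transcripts each probe set measures was not tested.

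**Figure D2:**
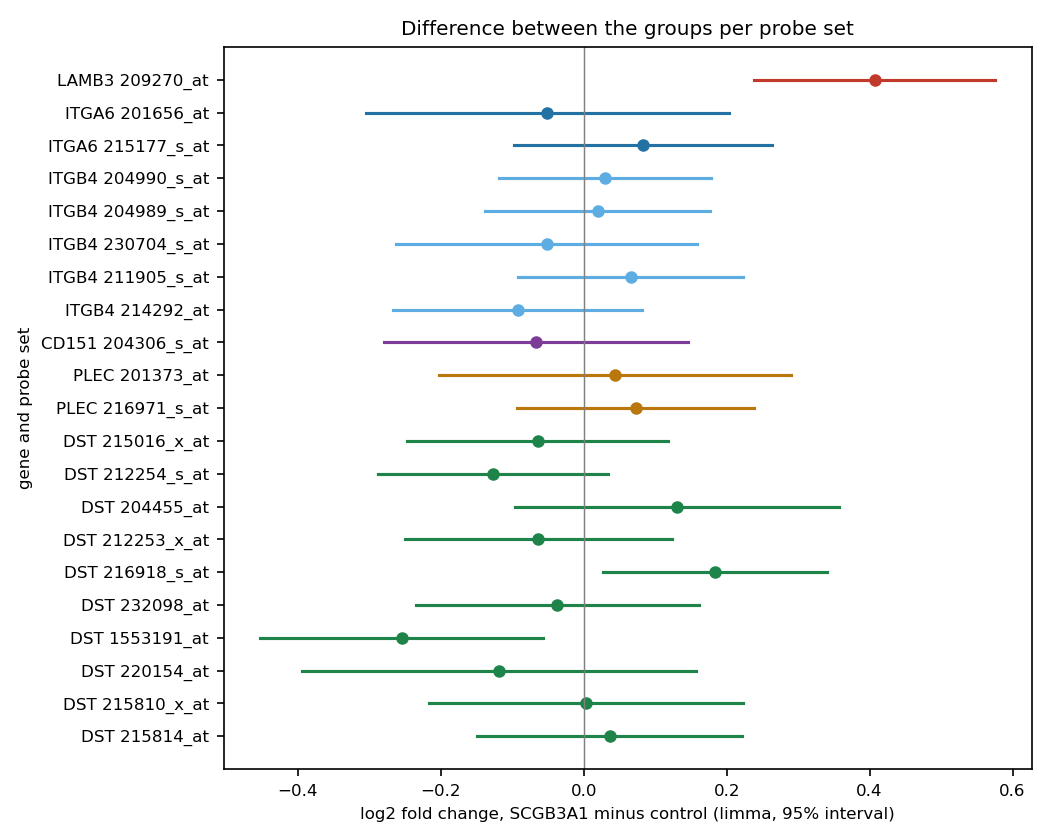
Difference between the groups (x axis, log2, SCGB3A1 minus control) for each of the 21 member probe sets, with its 95% interval from limma. The intervals of LAMB3 and DST 216918_s_at lie above 0 and that of DST 1553191_at below 0, while the other 18 include 0; the intervals are not adjusted for the number of probe sets tested.

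Without LAMB3, the members were spread evenly about 0. Of the other 20 probe sets, 10 read higher and 10 lower, from −0.25 to 0.18, with a median of −0.02. When each gene was represented by its brightest probe set, 3 genes read higher and 3 lower, and the median over the 6 genes was −0.01 against 0.01 over all 19775 genes. Over all 21 probe sets the median was 0.0033, against 0.0026 over all 54613.

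**Figure D3:**
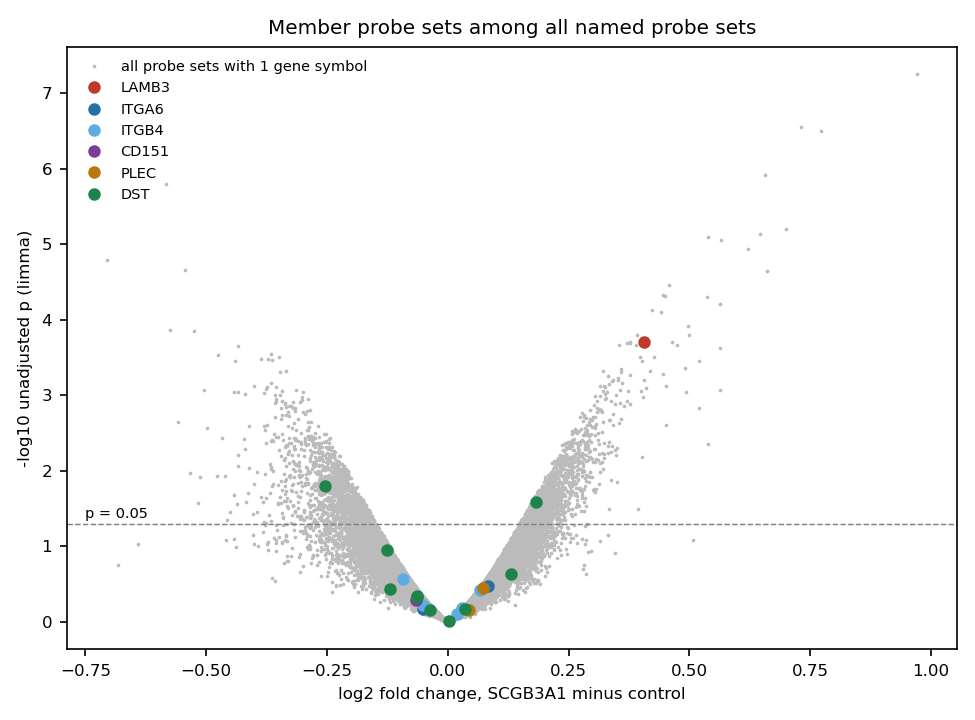
Each grey point is a probe set with 1 gene symbol, by its log2 difference (x axis) and −log10 of its unadjusted limma p (y axis); coloured points are the member probe sets and the dashed line marks an unadjusted p of 0.05. LAMB3, at 0.41, lies in the upper right, the other members lie between −0.25 and 0.18, and 2 DST probe sets are the only others above the line.

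No pair of members passed a test of covariation across the arrays. Over the 15 pairs of the 6 genes, with 1 probe set per gene and 6 arrays, the highest correlation was between ITGA6 and PLEC, with Pearson's r = 0.82 (exact permutation p = 0.0486, adjusted over 15 pairs 0.729) and Spearman's rho = 0.77 (exact p = 0.103, adjusted 1). Without the 2 arrays farthest from the median of ITGA6 (control 2 and SCGB3A1 3), r was 0.50 over 4 arrays, too few to test. LAMB3 and ITGB4 gave r = 0.51 (exact permutation p = 0.325, adjusted 0.911).

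The genes whose profile over the 6 arrays was closest to that of LAMB3 were not members. Likeness was the root mean square difference on the log2 scale after each gene was set to its own control mean, over 12655 genes that read above the table's median. The closest was DCN, which encodes the matrix proteoglycan decorin, at 0.0369 with a difference between groups of 0.40. Next came MFAP4, a microfibril-associated protein, at 0.0459 (difference 0.38), and SIGLEC15, a sialic acid-binding receptor, at 0.0542 (difference 0.38). The members ranked 4913 (ITGB4), 8795 (PLEC), 9233 (DST), 9732 (CD151) and 11088 (ITGA6). By this measure a gene with little difference between the groups lies far from LAMB3, so these ranks largely restate the differences given above. None of the 3 closest genes passed the test, with limma adjusted p of 0.317, 0.288 and 0.406.

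**Figure D4:**
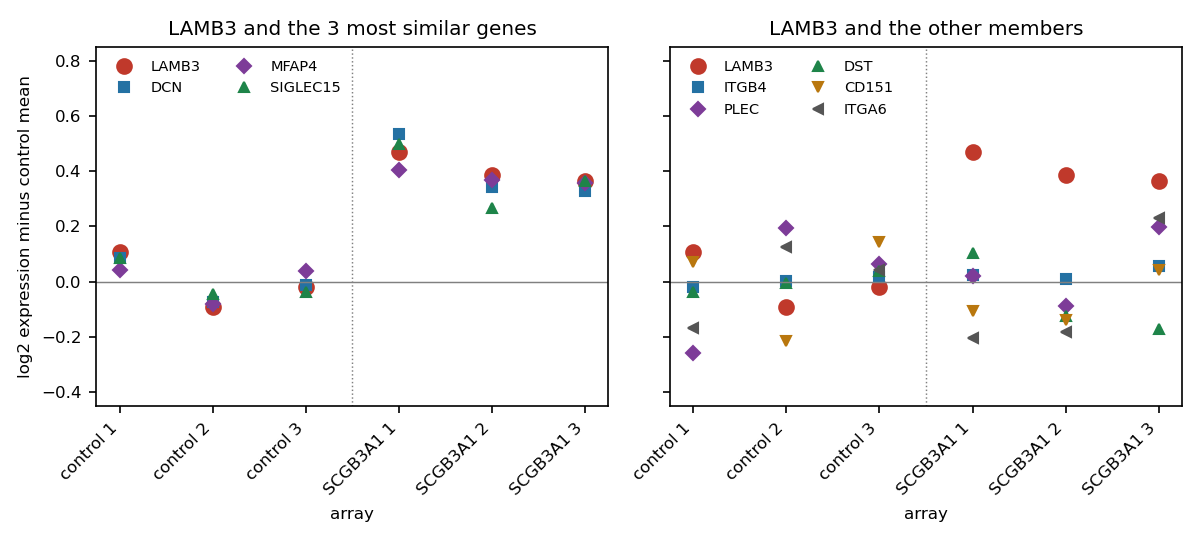
Log2 expression minus each gene's control mean (y axis) in the 6 arrays (x axis), with control arrays left and SCGB3A1 arrays right of the dotted line. Left, LAMB3 and the 3 genes most like it, chosen for this pattern, lie above all their control arrays in the SCGB3A1 arrays; right, the other 5 members, 1 probe set each, scatter about 0 where LAMB3 does not.

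DCN is also 1 of 4 fibroblast markers, whose summed log2 level was 37.0 to 37.3 in the control and 37.8 to 38.2 in the SCGB3A1 arrays, without overlap. DCN (0.40, limma adjusted p = 0.317) and LUM (0.52, adjusted p = 0.317), both proteoglycans of the collagen matrix, read higher, COL1A2 differed by 0.09 and COL1A1 by −0.21. The defining marker COL1A1 read above 99.7% of the probe sets in these cells. The summed epithelial markers were also apart, at 42.8 to 44.1 in control and 44.8 to 44.9 in SCGB3A1 arrays, where KRT5 and KRT14 differed by 0.56 each, KRT8 by 0.04 and KRT18 by 0.08. The summed mesenchymal or basal-like markers VIM, CD44 and EGFR were apart in the other direction, at 36.6 to 37.1 in control and 36.2 to 36.4 in SCGB3A1 arrays. At their brightest probe sets VIM differed by −0.05, CD44 by −0.16 and EGFR by −0.24, with limma adjusted p of 0.931, 0.834 and 0.759. Of all single probe sets, 5.95% were apart upwards and 5.25% downwards, and the share for such sums was not tested. The part of these markers in the LAMB3 difference was not tested, and in bulk RNA a larger share of cells of 1 kind and more RNA per cell cannot be told apart.

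The wider adhesion machinery was described with 10 lists of 55 genes around the hemidesmosome, of which 52 had a named probe set, 146 in all. None passed limma's adjusted p of 0.05, against 0.0354% of all 19775 genes. At an unadjusted p under 0.05, 15 probe sets read higher (10.3%) and 11 lower (7.53%), against 3.09% and 3.1% of all probe sets. The KRT5 and KRT14 probe sets were among the 15. The lists were chosen with earlier results of these data known, so these shares describe the lists and do not test them. With 1 probe set per gene, 26 genes read higher and 26 lower, and the median difference was 0.0018, against 0.01 over all genes.

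Among the laminin chains with a named probe set (LAMA5, LAMB1, LAMB2 and LAMC1), LAMB2, a β chain of other laminin trimers, had the smallest p. It read 9.09, 8.96 and 9.04 in control and 9.33, 9.23 and 9.15 in SCGB3A1 arrays, without overlap, a difference of 0.20 ± 0.08 (limma adjusted p = 0.778). LAMC1, the γ chain of those trimers, differed by −0.04 and 0.09 in its 2 probe sets. Of the other laminin receptors, SDC1, a heparan sulfate proteoglycan, had the smallest p, with a difference of 0.21 (limma adjusted p = 0.784). Of 28 probe sets of the basement membrane and anchoring fibril list, 3 read higher (10.7%) and 1 lower (3.57%) at an unadjusted p under 0.05, against the same 3.09% and 3.1%. AGRN, a heparan sulfate proteoglycan of basement membranes, had the smallest p there at 217419_x_at, with 0.29 (limma adjusted p = 0.620). The other 3 AGRN probe sets gave 0.05, −0.01 and −0.11. The collagen gene COL7A1 supplied the 1 lower probe set and 1 of the 3 higher. It differed by −0.29 at 204136_at and by 0.17 at 217312_s_at, both without overlap (limma adjusted p = 0.737 and 0.800).

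The largest differences of these lists were those of the plakin gene DSP and the keratin genes KRT5 and KRT14. Of the 4 plakin genes listed, 2 read higher and 2 lower at their brightest probe set, with a median of −0.03. DSP, which encodes desmoplakin, the plakin that ties keratin to desmosomes and not to hemidesmosomes, read 9.91, 9.93 and 9.92 in control and 10.44, 10.39 and 10.27 in SCGB3A1 arrays. The groups were clearly apart, with a difference of 0.45 ± 0.07 (limma adjusted p = 0.144). KRT5 and KRT14 form the keratin pair of basal epithelial cells, to which the hemidesmosomal plakins attach. KRT5 read 11.85, 11.72 and 12.11 against 12.43, 12.48 and 12.47, a difference of 0.56 ± 0.09 (limma adjusted p = 0.166), and KRT14 also differed by 0.56 (adjusted p = 0.290). With an intensity trend in limma's variance model, DSP (adjusted p = 0.0363) and KRT5 (adjusted p = 0.0198) passed the test, and LAMB3 did not (adjusted p = 0.210). No other of the 13 alternatives called DSP or KRT5, and limma's adjusted p reached 0.910 for DSP and 0.934 for KRT5 among them. MACF1, another plakin, gave −0.19 and 0.24 in its 2 probe sets with an unadjusted p under 0.05.

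The remaining lists gave smaller differences, none past the test. MMP14, a membrane-bound protease that can cut laminin-332, differed by 0.22 (limma adjusted p = 0.717). At their brightest probe set, 4 of the 5 genes of the protease list read higher, against 10728 of all 19775 genes. The exception was MMP2, at −0.17 at 201069_at, where the gap between the groups was only 0.0021 (limma adjusted p = 0.802). Its other probe sets gave −0.03 and 0.17. TLN1, the integrin activator talin, differed by −0.21 at 203254_s_at (adjusted p = 0.784) but by −0.08 and 0.02 at its other probe sets. The tetraspanin CD82 differed by 0.12 (adjusted p = 0.929). MET, a receptor tyrosine kinase that has been found to work with ITGB4, differed by −0.21 at 203510_at (limma adjusted p = 0.757). Its other probe sets gave 0.0031, 0.02 and −0.25. In the signalling list, 5 of the 7 genes read lower at their brightest probe set, against 9047 of all 19775 genes. The brightest probe sets of the 4 transcription factors with a named probe set all read lower, with a median of −0.12, but other probe sets of JUND (0.09 and 0.07) and ZEB1 (0.04) read higher. Of them JUN, a subunit of AP-1, had the smallest p at 213281_at. It read 8.69, 8.79 and 8.79 in control and 8.51, 8.50 and 8.50 in SCGB3A1 arrays, without overlap, a difference of −0.26 ± 0.07 (limma adjusted p = 0.705). Its other 3 probe sets gave −0.07, 0.10 and −0.27, so JUN was not measured alike by all of them.

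**Figure D5:**
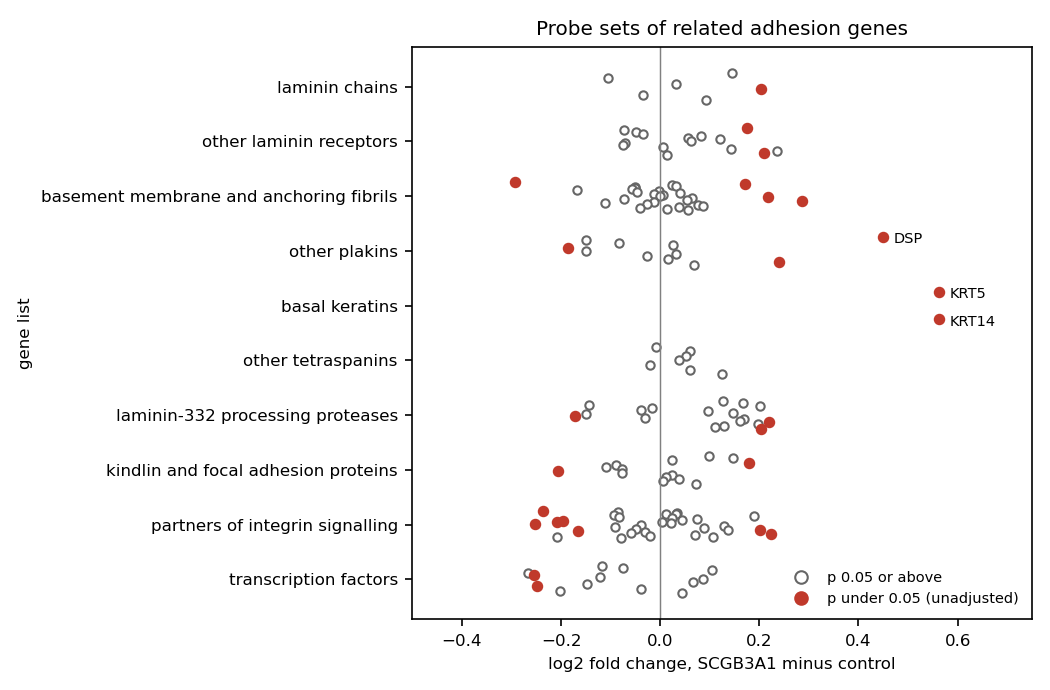
Each point is 1 probe set of a related adhesion gene, by list (rows) and log2 difference (x axis, SCGB3A1 minus control); filled points have an unadjusted limma p under 0.05. DSP, KRT5 and KRT14 lie at 0.45 and 0.56, apart from all other points, which lie between −0.29 and 0.29, and no point passed the adjusted test.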

How the data were processed

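RNA (100 ng) of each culture was hybridized to an Affymetrix Human Genome U133 Plus array. The deposited values are log2 expression, which the authors made by RMA in Chipster; quantile normalization hides shifts shared by all genes. The genome build is not given. Of 54675 probe sets, 62 manufacturer's controls were left out. GEO's platform annotation, checked against RefSeq (GRCh38.p14; 0 symbols updated, 54 not held), gave 41091 probe sets 1 symbol, 1801 several and 11721 none.

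The groups were compared with limma 3.58.1 (lmFit and eBayes, R 4.3.3), two-sided, with Benjamini-Hochberg adjustment over 54613 probe sets. The script was tested on simulated data. The number of arrays limits the precision. Named were all members, the 3 genes most like LAMB3, and in each list the gene of smallest p and any past adjusted p 0.05. LAMC1, MACF1, KRT14, COL7A1, MMP2, JUND and ZEB1 were added after their values were seen. The members and lists were chosen with earlier results of these data known. Alternatives were median centring, an intensity trend, array weights, a replicate block, no dim or no cross-hybridizing probe sets, 1 probe set per gene and leaving out each array.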

Additional observations from a re-analysis of the deposited data

How the results depend on the processing

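In none of the 13 alternatives did a member probe set pass limma's adjusted p of 0.05 (3 passed an unadjusted p of 0.05 in the reported comparison); 10 alternatives held all 21, and 16 were left without dim probe sets, 9 without cross-hybridizing ones and 6 with 1 probe set per gene. Across all 13 the LAMB3 difference stayed between 0.36 and 0.46, with an unadjusted p under 0.05 in each and adjusted p from 0.173 (array weights) to 0.998 (without SCGB3A1 1). With the replicate block it was 0.41 (adjusted p = 0.422), and the block changed no call. Deviations of same-numbered arrays correlated at 0.145, −0.144 and −0.0871, which showed no strong shared signal. Whether same-numbered cultures were handled together is not stated, and these correlations cannot decide it. The intensity trend called 2 pathway genes, DSP and KRT5, against 0. The number of member probe sets with an unadjusted p under 0.05 was 1 with 1 probe set per gene and 1 to 2 with an array left out. The number whose groups did not overlap was 1 without cross-hybridizing probe sets, 1 with 1 probe set per gene and 3 to 6 with an array left out, where fewer arrays make a lack of overlap more frequent. The sign was kept by 12 member probe sets in every alternative that held them and turned in at least 1 by 9, none of which had an unadjusted p under 0.05. Array weights gave −0.059 for DST 215810_x_at and 0.016 for ITGB4 230704_s_at. With an array left out, the ranges were −0.11 to 0.069 for DST 215810_x_at, −0.11 to 0.048 for DST 232098_at, −0.24 to 0.044 for DST 220154_at, −0.030 to 0.12 for DST 215814_at, −0.19 to 0.025 for ITGA6 201656_at, −0.024 to 0.045 for ITGB4 204989_s_at, −0.11 to 0.061 for ITGB4 230704_s_at, −0.17 to 0.0060 for CD151 and −0.086 to 0.14 for PLEC 201373_at.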
